A study of Mus musculus with 9 samples.

Results

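A set of 8 receptor and signalling genes of the interleukin 6 (IL6) family was followed in mouse liver: the signal transducer Stat3, its feedback inhibitor Socs3, the receptor genes Il6ra, Il6st, Osmr, Lifr and Lepr, and the secreted hepatocyte gene Fgl1. They were taken from the deposited expression table by gene symbol alone, and make up 8 of its 24541 symbols. All 8 were among the 12202 symbols with a mean of at least 0.5 FPKM that entered the test. FPKM is the fragment count per kilobase of transcript scaled to the library's mapped fragments, and values of several transcript models of a gene were summed.

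The livers came from Balb/c mice aged 9 weeks, in 3 groups of 3 livers: vehicle, APAP, and LRH1+APAP. APAP is acetaminophen, which in overdose kills hepatocytes, and LRH1, a nuclear receptor, is the product of Nr5a2. Dose, route, time of collection, sex and the means of LRH1 delivery are not stated in the labels, and no group received LRH1 without APAP, so the action of LRH1 alone cannot be told apart from its action after APAP. The series text calls the LRH1+APAP group LRH1, and the sample labels, which say LRH1+APAP, were followed.

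IL6 binds its receptor IL6RA, which then pairs with the shared signalling subunit gp130, the product of Il6st. Oncostatin M and leukaemia inhibitory factor use OSMR or LIFR together with gp130, while the leptin receptor, a relative of gp130, signals as its own dimer. Each of these receptors activates JAK kinases and the transcription factor STAT3, which turns on acute-phase genes in hepatocytes and also Socs3, whose product blocks gp130 and the JAKs.

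The regions just upstream of the transcription start were read for the members from RefSeq (build GRCm38.p6), which had entries for 7 of the 8, Fgl1 being the exception. A set of 3 is shown: Socs3 as the STAT3 feedback gene, Il6ra as the gene that differed most firmly between the APAP and LRH1+APAP livers, and Lifr as the member with an LRH1 motif. Each runs 5′ to 3′ on the gene's strand over the 250 bases before the start, and capitals mark the motif matches.
Socs3: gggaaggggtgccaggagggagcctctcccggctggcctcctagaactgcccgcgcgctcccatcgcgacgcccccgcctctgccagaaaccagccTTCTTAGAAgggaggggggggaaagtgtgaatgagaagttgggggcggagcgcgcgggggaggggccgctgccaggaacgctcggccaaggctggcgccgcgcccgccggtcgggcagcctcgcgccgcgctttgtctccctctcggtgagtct
Il6ra: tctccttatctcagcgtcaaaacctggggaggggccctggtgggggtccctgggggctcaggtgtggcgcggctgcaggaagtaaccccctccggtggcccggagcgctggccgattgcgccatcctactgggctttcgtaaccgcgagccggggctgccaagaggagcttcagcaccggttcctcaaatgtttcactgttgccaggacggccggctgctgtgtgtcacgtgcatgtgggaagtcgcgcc
Lifr: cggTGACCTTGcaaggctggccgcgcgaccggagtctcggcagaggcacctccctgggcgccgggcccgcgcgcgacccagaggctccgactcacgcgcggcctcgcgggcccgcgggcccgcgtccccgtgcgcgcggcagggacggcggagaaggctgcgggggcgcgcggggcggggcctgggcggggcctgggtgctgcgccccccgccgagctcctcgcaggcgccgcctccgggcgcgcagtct
The Socs3 sequence is chr11:117969367-117969616 on the minus strand, that of Il6ra is chr3:89913197-89913446 on the minus strand, and that of Lifr, the first of its 2 entries, is chr15:7129322-7129571 on the plus strand. Both strands of the 250 bases were searched for the STAT palindrome TTCNNNGAA, the LRH1 site CAAGGNCA and the AP-1 site TGANTCA, and no match overlapped another. The STAT palindrome was found in Socs3, from -154 to -146 before the start, and in no other of the 7 members, against 7.02% of 32851 mouse promoters of this length. The LRH1 site was found in the first Lifr entry, on the opposite strand from -247 to -240, against 5.53% of promoters. That entry lies before the start of the shorter Lifr model, of 719 codons. The second Lifr entry, before the longer model of 1092 codons, held none of the 3 motifs. No member held the AP-1 site, which 6.75% of promoters hold. In the Il6ra window none of the 3 motifs was found, which says only that these letters are not in those 250 bases.

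Nr5a2 checked the labels: its level was 14.7, 13.1 and 12.3 FPKM in vehicle livers, 10.8, 9.29 and 10.3 in APAP livers, and 206, 83.8 and 113 in LRH1+APAP livers. Every LRH1+APAP liver was far above the other 6. Summed hepatocyte markers lay between 43358 and 52263 FPKM in the 9 livers, and all 6 of these markers were detected. The livers were whole tissue, so fewer cells of a type and less RNA per cell cannot be told apart. Read depth is unknown, because FPKM carries no counts, and p-values measure the spread between these livers. The APAP livers differed most among themselves: the summed level of 6 neutrophil markers was 29.9, 457 and 45.8 FPKM in APAP livers 1 to 3, against 1.62 to 2.67 in vehicle and 5.27 to 6.22 in LRH1+APAP livers. APAP liver 2 was the highest APAP liver for 6 of the 8 members and the lowest for the other 2, Il6ra and Lifr.

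Of the 8 genes, 6 changed between vehicle and APAP livers: Socs3, Osmr, Stat3, Il6st and Lepr rose, and Il6ra fell. Fgl1 and Lifr did not pass the test. The same limma test called 47.8% of all 12202 genes higher and 15.1% lower in APAP livers, so that being called higher was common. Without APAP liver 2, the calls of Socs3 (1.63), Osmr (1.11), Stat3 (0.91), Il6st (0.61) and Il6ra (-0.78) held, with adjusted p from 0.00213 to 0.00776. The median difference of the 8 members was 0.68 on the log2(FPKM + 1) scale, against 0.25 for all genes tested. Upper-quartile and quantile scaling took the all-gene median to 0.04 and -0.04 and the share of higher genes among those called from 75.98% to 54.14% and 45.8%. Under both scalings 4 members rose and 2 fell, since Lepr lost its call and Lifr passed as lower, at -0.57 and -0.52. Over all genes, upper-quartile scaling called 31.2% higher and 26.4% lower, and quantile normalization 25.6% and 30.3%.

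**Figure D1:**
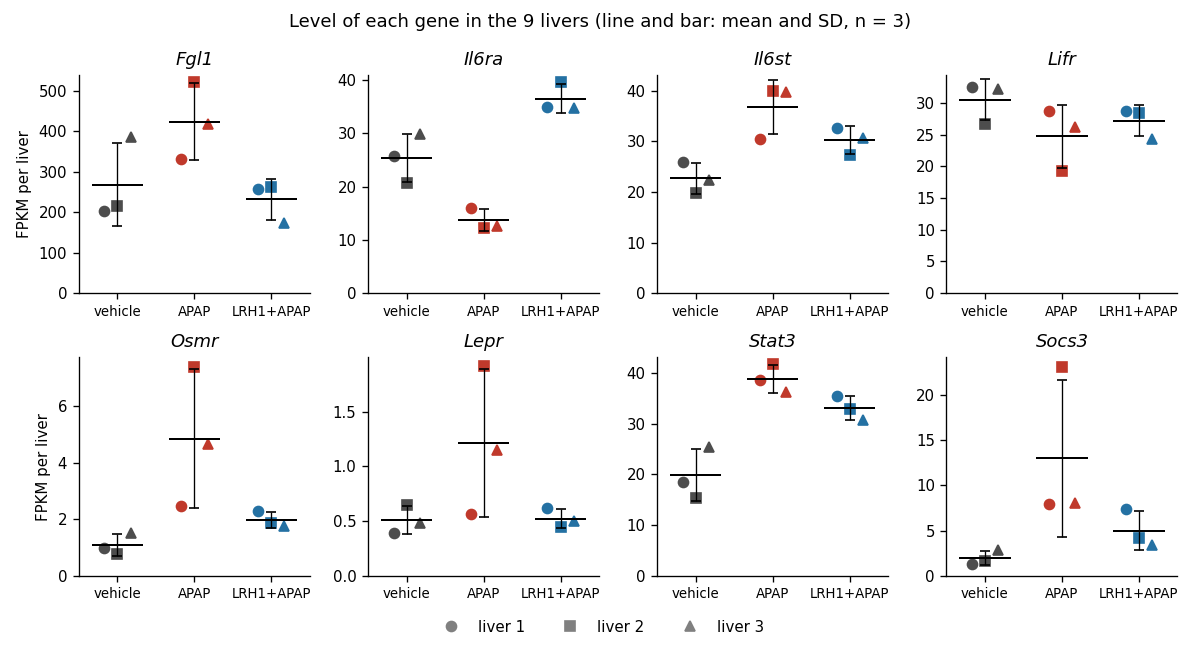
FPKM of the 8 genes in each liver, summed over transcript models, with vehicle in grey, APAP in red and LRH1+APAP in blue. Lines and bars give the mean and SD of 3 livers, and circle, square and triangle are livers 1, 2 and 3. Il6ra is lowest in the 3 APAP livers and highest in the 3 LRH1+APAP livers, while Stat3, Socs3 and Osmr are highest in the APAP livers.

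Il6ra, the gene of the ligand-binding IL6 receptor (chr3:89869325-89913196, mm10), was the one member that fell with APAP, Lifr also being lower there without passing the test. Its level was 25.7, 20.7 and 29.8 FPKM in vehicle livers, 16.1, 12.3 and 12.7 in APAP livers, and 35.0, 39.6 and 34.8 in LRH1+APAP livers. The 3 groups did not overlap: every APAP liver was below every vehicle liver, and every LRH1+APAP liver was above both. The mean fell from 25.4 ± 4.56 FPKM (SD, n = 3) to 13.7 ± 2.08 in APAP livers, 1.86-fold, a limma difference of -0.84 (SE 0.14, adjusted p = 0.00126). In LRH1+APAP livers it was 36.5 ± 2.71 FPKM, 2.67-fold over APAP, a difference of 1.36 (SE 0.14, adjusted p = 0.00285). It was the one member called in that comparison, in which 7.13% of all genes were called higher and 5.17% lower. Both calls held under each of the 18 alternatives, with adjusted p from 0.000393 to 0.00652 for APAP against vehicle and from 0.000383 to 0.0205 for LRH1+APAP against APAP. Against vehicle, Il6ra was 1.44-fold higher in LRH1+APAP livers, at 0.52 (adjusted p = 0.0176), a call lost under both scalings, with the highest transcript model in place of the sum, and without vehicle liver 2 (adjusted p = 0.0562) or LRH1+APAP liver 2 (0.0617). The annotated exons of Il6ra share 242 bases with the antisense gene Gm42809, and the sources used here do not say whether counting used strand.

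Il6st, the gene of gp130 (chr13:112464071-112506860), was at 25.9, 19.8 and 22.3 FPKM in vehicle livers, 30.5, 39.9 and 39.7 in APAP livers, and 32.7, 27.2 and 30.7 in LRH1+APAP livers. All APAP livers lay above all vehicle livers, and the LRH1+APAP livers overlapped the lower end of the APAP range while staying above vehicle. Il6st rose 1.62-fold with APAP (0.67, SE 0.13, adjusted p = 0.00259). In LRH1+APAP livers it was 1.33-fold the vehicle level (0.40, adjusted p = 0.0342), and this second call was lost in 8 of 18 alternatives, both scalings and the omission of either of 2 vehicle or 2 LRH1+APAP livers among them. LRH1+APAP against APAP gave -0.26 (adjusted p = 0.199).

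Osmr, the gene of the oncostatin M receptor subunit (chr15:6813578-6874313), had 0.966, 0.765 and 1.53 FPKM in vehicle livers, 2.48, 7.39 and 4.66 in APAP livers, and 2.30, 1.87 and 1.77 in LRH1+APAP livers. No group overlapped another, and the LRH1+APAP livers lay in a narrow band between the others. Osmr rose 4.46-fold with APAP (1.41, SE 0.28, adjusted p = 0.00263), a call that held in all 17 alternatives that gave a value. Its lower level in LRH1+APAP than in APAP livers (-0.88, SE 0.28) did not pass the test, at adjusted p = 0.0699, and neither did the difference from vehicle (0.53, adjusted p = 0.151). Without APAP liver 1, the lowest of its group, the first of these became -1.21 with adjusted p = 0.00331, and without APAP liver 2, the highest, it became -0.58 with adjusted p = 0.136.

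Lifr, the gene of the leukaemia inhibitory factor receptor (chr15:7140543-7197489 for its longer model), was the most abundant receptor gene of the family in each vehicle liver, at 32.4, 26.7 and 32.2 FPKM. It measured 28.7, 19.2 and 26.2 FPKM in APAP livers and 28.7, 28.4 and 24.4 in LRH1+APAP livers, so that the groups overlapped. None of its 3 differences passed the test: -0.30 (adjusted p = 0.102) for APAP against vehicle, 0.15 (adjusted p = 0.521) for LRH1+APAP against APAP, and -0.16 (adjusted p = 0.400) for LRH1+APAP against vehicle. Besides the scalings, leaving out APAP liver 1 made the first pass, at -0.42 (adjusted p = 0.0301).

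Lepr, the leptin receptor gene (chr4:101717408-101815354), was the least abundant of the 8 in all 9 livers. It stood at 0.393, 0.649 and 0.480 FPKM in vehicle livers, 0.566, 1.92 and 1.15 in APAP livers, and 0.619, 0.449 and 0.497 in LRH1+APAP livers. APAP livers 2 and 3 were above the other 7, and APAP liver 1 lay within the range of the vehicle livers. Its rise with APAP (0.51, SE 0.20, adjusted p = 0.0470) sat at the threshold and was lost in 12 of 17 alternatives, with adjusted p from 0.00192 to 0.406. Without APAP liver 2 the difference was 0.29 (adjusted p = 0.120).

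Stat3 itself (chr11:100886807-100939540) was at 18.6, 15.4 and 25.5 FPKM in vehicle livers, 38.6, 41.8 and 36.2 in APAP livers, and 35.5, 32.9 and 30.9 in LRH1+APAP livers. The groups did not overlap, and both APAP-treated groups were above vehicle. It rose 1.96-fold with APAP (0.96, SE 0.16, adjusted p = 0.00105) and was 1.67-fold the vehicle level in LRH1+APAP livers (0.74, adjusted p = 0.00600). The difference between LRH1+APAP and APAP livers was -0.23 (SE 0.16, adjusted p = 0.342). With the highest transcript model alone, LRH1+APAP against vehicle gave 0.50 (adjusted p = 0.0735). Its annotated exons share 72 bases with Stat5a on the opposite strand.

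Socs3 (chr11:117966088-117969366) had the largest ratio of highest to lowest liver of the 8, at 1.34, 1.65 and 2.89 FPKM in vehicle livers, 7.89, 23.1 and 8.005 in APAP livers, and 7.43, 4.16 and 3.40 in LRH1+APAP livers. All APAP livers were above all vehicle livers, with APAP liver 2 far above the rest, and all LRH1+APAP livers lay between these groups. Socs3 rose 6.62-fold with APAP (2.11, SE 0.41, adjusted p = 0.00229), in all 18 alternatives. The 2.60-fold lower mean in LRH1+APAP than in APAP livers was a difference of -1.11 (SE 0.41) with adjusted p = 0.101, which shrank to -0.64 (adjusted p = 0.197) without APAP liver 2. The 2.55-fold higher mean than in vehicle livers was 1.00 (adjusted p = 0.0726). This last difference passed with a pseudocount of 0.1 FPKM, in a fit of the 6 libraries compared, and without APAP liver 2 (adjusted p = 0.0125).

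Fgl1 (chr8:41191435-41215156), a liver-secreted fibrinogen-like protein whose gene is known to respond to IL6 through STAT3, was the most abundant of the 8 in every liver. Its level was 202, 215 and 386 FPKM in vehicle livers, 331, 521 and 417 in APAP livers, and 258, 262 and 174 in LRH1+APAP livers. Vehicle liver 3 reached into the APAP range, and every LRH1+APAP liver was below every APAP liver. Neither APAP against vehicle (0.70, SE 0.28, adjusted p = 0.0519) nor LRH1+APAP against APAP (-0.87, SE 0.28, adjusted p = 0.0701) passed the test. Without vehicle liver 3 they were 1.00 (adjusted p = 0.00922) and -0.87 (adjusted p = 0.0468).

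Between LRH1+APAP and APAP livers the median difference of the 8 members was -0.38, against -0.01 for all genes tested, with 1 member called higher and none lower. By range alone, the 3 LRH1+APAP livers were all below the 3 APAP livers for Stat3, Socs3, Osmr and Fgl1, and all above them for Il6ra. Of these genes only Il6ra passed the test. The share of all genes whose ranges separate in this way was not computed, so the separation is not shown to be particular to the members. Single APAP livers decided much of this comparison, in opposite ways. Without APAP liver 1, Socs3, Il6st, Osmr, Lepr and Fgl1 passed as lower, at -1.35, -0.39, -1.21, -0.72 and -1.03, while genes called over the whole table went from 7.13% to 16.7% higher and from 5.17% to 21.4% lower. Without APAP liver 2 none of the 5 passed, and their differences shrank to -0.64 (Socs3, adjusted p = 0.197), -0.20 (Il6st, 0.400), -0.58 (Osmr, 0.136), -0.27 (Lepr, 0.261) and -0.71 (Fgl1, 0.164). Over the whole table, 4.58% of genes were then called higher and 3.36% lower. This comparison shares its APAP livers with APAP against vehicle, and the differences of a gene in the pair are therefore not independent of each other. Against vehicle, 39.2% of all genes were called higher and 8.02% lower in LRH1+APAP livers, and of the 8 members Stat3, Il6ra and Il6st were called higher and none lower. With either scaling 1 member, Stat3, was left among these, as the share of higher genes among those called went from 83% to 49.6% and 41.99%. Over all genes, upper-quartile scaling then called 19.3% higher and 19.6% lower, and quantile normalization 15.6% and 21.5%.

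**Figure D2:**
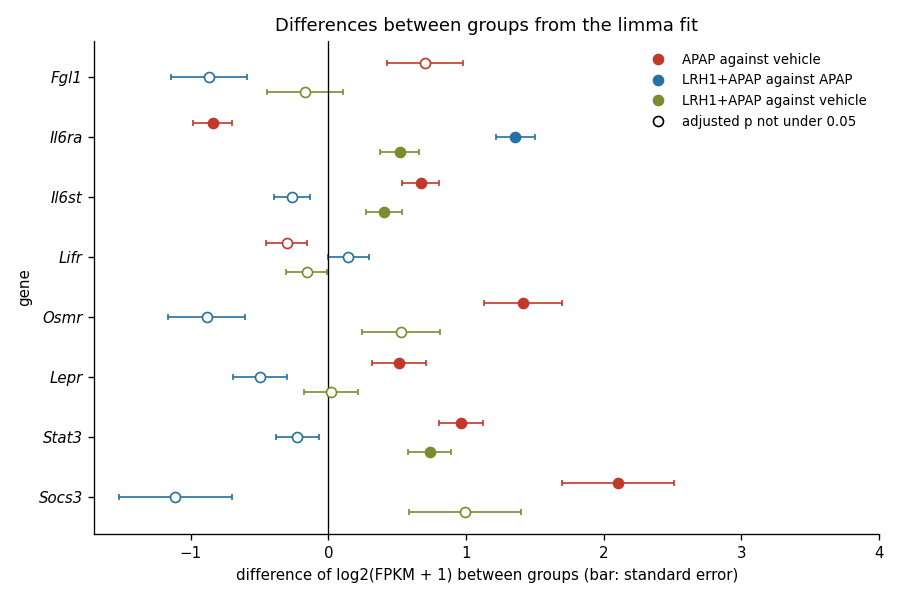
Difference of log2(FPKM + 1) between groups for each gene from the limma fit, with the standard error as a bar, in red for APAP against vehicle, blue for LRH1+APAP against APAP and olive for LRH1+APAP against vehicle. Filled circles have an adjusted p under 0.05. Il6ra is filled on both sides of 0, at -0.84 and 1.36, and no other blue circle is filled.

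The balance of subunits within a liver was followed as a ratio, in which a factor common to the whole library cancels. Il6ra to Il6st was 0.994, 1.05 and 1.34 in vehicle livers, 0.526, 0.308 and 0.319 in APAP livers, and 1.07, 1.45 and 1.13 in LRH1+APAP livers. Il6ra transcripts were thus about level with or above those of its signalling partner in most vehicle and all LRH1+APAP livers, and well below them in all APAP livers. The log2 ratio differed by -1.58 with APAP and by 1.70 between LRH1+APAP and APAP livers, each with an exact two-sided permutation p of 0.1, the smallest that 3 against 3 allows, and 0.2 after adjustment over the 12 ratio tests.

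Osmr to Lifr, the subunits that pair with gp130 for oncostatin M and leukaemia inhibitory factor, was 0.0298, 0.0286 and 0.0474 in vehicle livers, 0.0863, 0.385 and 0.178 in APAP livers, and 0.0801, 0.0657 and 0.0728 in LRH1+APAP livers. Lifr remained the more abundant in all 9, and the ratio was higher in every APAP-treated liver than in any vehicle liver. Its log2 differences were 2.40 for APAP against vehicle, -1.31 for LRH1+APAP against APAP and 1.08 for LRH1+APAP against vehicle, all with exact permutation p = 0.1 and adjusted p = 0.2.

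Socs3 to Stat3 was 0.0721, 0.107 and 0.113 in vehicle livers, 0.204, 0.552 and 0.221 in APAP livers, and 0.209, 0.126 and 0.110 in LRH1+APAP livers. Every APAP liver exceeded every vehicle liver (1.61 on the log2 scale, exact permutation p = 0.1), and the LRH1+APAP livers overlapped both groups. Lepr to Il6st, 0.0152 to 0.0328 in vehicle, 0.0185 to 0.0481 in APAP and 0.0162 to 0.0189 in LRH1+APAP livers, overlapped in all 3 comparisons.

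**Figure D3:**
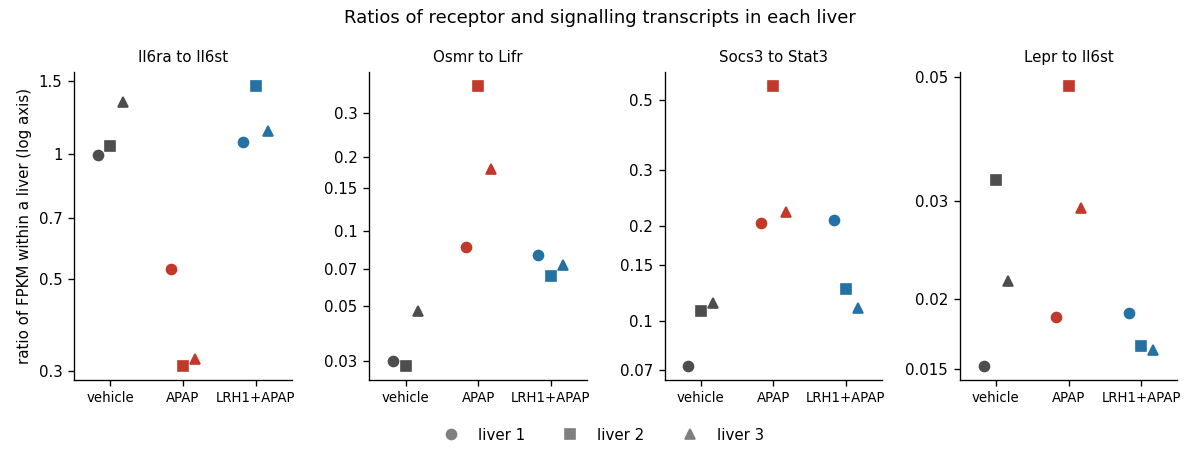
Ratio of FPKM between pairs of the genes within each liver, on log axes, by group, with livers 1, 2 and 3 as circle, square and triangle. Il6ra to Il6st lies between 0.308 and 0.526 in the APAP livers and at 0.994 or above in the other 6.

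Transcript models divided some of these genes into forms that differ in coding length. The 2 models of Il6ra, and likewise those of Osmr, differ by 3 bases, as do variants 1 and 2 of Stat3, of 770 and 769 codons, so that the split within each such pair is uncertain. Stat3 variant 1 took 68.6 to 78.0% of the summed FPKM in 8 livers and 45.0% in LRH1+APAP liver 1, and variant 2 took 12.3 to 19.0% and 28.1%. The shorter variant 3, of 722 codons, took 8.35 to 15.5% in those 8 livers and 27.0% in LRH1+APAP liver 1. Stat3 variant 1 was at 13.5, 11.1 and 18.7 FPKM in vehicle, 30.1, 28.7 and 26.6 in APAP, and 16.0, 25.0 and 21.3 in LRH1+APAP livers.

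Lifr has a model of 1092 codons and a shorter one of 719 codons. The longer took 57.0 to 70.7% of the sum in vehicle, 51.5 to 67.9% in APAP and 63.0 to 67.2% in LRH1+APAP livers, with overlapping ranges. Lepr came almost wholly from the model of 894 codons, at 76.9 to 100% of the sum, and the model of 1162 codons, which encodes the long form known to carry the STAT3 docking site, reached 0.181 FPKM in APAP liver 2 and less elsewhere. No test was run on these shares, and assigning short reads to near-identical models is uncertain.

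**Figure D4:**
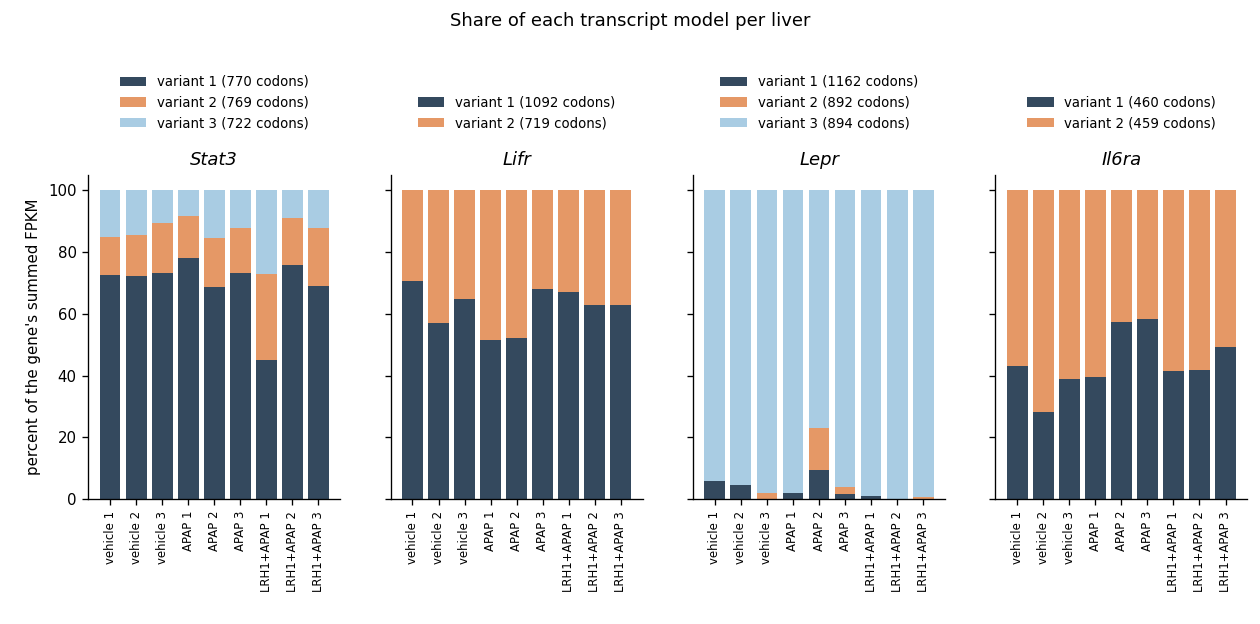
Share of each transcript model in the summed FPKM of Stat3, Lifr, Lepr and Il6ra, in percent, with 1 bar per liver and the number of codons of each model in the key. LRH1+APAP liver 1 has the lowest share of Stat3 variant 1, at 45.0%, and APAP liver 2 the lowest share of Lepr variant 3, at 76.9%.

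The ligands of the family were mostly too low to test: 7 of 11 were below 0.5 FPKM on average. Il6 was listed at 0 in 7 livers, and read 0.128 FPKM in APAP liver 2 and 0.0227 in LRH1+APAP liver 1. Il11 was listed at 0 in the vehicle livers, and was at 0.593, 1.79 and 0.878 FPKM in APAP and 0.190, 0.233 and 0.112 in LRH1+APAP livers, without overlap. Lif read 0.139, 1.53 and 0.161 FPKM and Osm, the gene of oncostatin M, 0.0681, 0.612 and 0.0439 in APAP livers 1 to 3, against at most 0.0399 and 0.0427 in the other 6 livers. APAP liver 2, with the high neutrophil markers, was the highest for Il6, Il11, Lif and Osm. Il27 was at most 0.112 FPKM in any liver, and Lep was listed at 0 in all 9.

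Of the 4 ligands tested, Clcf1, which encodes a ligand of the CNTF receptor, rose with APAP (1.67, adjusted p = 0.00277), from at most 0.269 FPKM in vehicle to 1.17, 5.68 and 2.51. Ebi3, a subunit of IL27, also rose (0.48, adjusted p = 0.0205), and Ctf1, the gene of cardiotrophin 1, fell by 0.36 (adjusted p = 0.0241), each losing its call in 4 of 17 alternatives. Cntf, at 0.380 to 1.09 FPKM over the 9 livers, did not pass. None of the 4 passed between LRH1+APAP and APAP livers, where Clcf1 gave -0.75 (adjusted p = 0.157), Ctf1 0.10 (adjusted p = 0.590) and Cntf -0.06 (adjusted p = 0.847).

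Among 4 other receptor genes, Il27ra, which pairs with gp130 for IL27, and Cntfr, the CNTF-binding subunit, rose with APAP (0.44 and 0.52, adjusted p = 0.00354 and 0.00801), calls that quantile normalization ended (adjusted p = 0.167 and 0.213). Lrp1, an endocytic receptor and no signalling subunit of this family, fell by 0.56 (adjusted p = 0.0112), and Il11ra1, at 8.23 to 11.2 FPKM over the 9 livers, did not pass. In LRH1+APAP livers Cntfr was the one called, lower than in APAP livers by a difference of -0.56 (adjusted p = 0.0311), and 9 of 17 alternatives lost that call. Its level was 2.00, 3.37 and 2.75 FPKM in APAP and 1.54, 1.61 and 1.33 in LRH1+APAP livers. Il27ra and Il11ra1 gave -0.29 and -0.24 there (adjusted p = 0.0731 and 0.0838).

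All 4 JAK kinase genes rose with APAP, led by Jak1 (0.85, adjusted p = 0.000225), Jak2 (1.27, adjusted p = 0.000756) and Tyk2 (0.32, adjusted p = 0.00341), which carry the signal from gp130, and with Jak3 at 0.53 (adjusted p = 0.00473). Over all genes, 47.8% were called higher with APAP. Upper-quartile and quantile scaling left 3 and 2 of the 4 calls, where 31.2% and 25.6% of all genes were called higher. The sign of Tyk2 flipped under quantile normalization, to -0.0084. Jak1 measured 23.2, 22.6 and 25.6 FPKM in vehicle, 38.9, 49.3 and 43.0 in APAP, and 48.7, 45.4 and 50.5 in LRH1+APAP livers. None of the 4 passed between LRH1+APAP and APAP livers. Of 5 other STAT genes tested, Stat6 rose with APAP (0.38, adjusted p = 0.00597), a call lost under both scalings. Each scaling called 3 of the 5 lower and none higher, where 26.4% (upper-quartile) and 30.3% (quantile) of all genes were called lower. Stat5a gave -0.13 (adjusted p = 0.476), and Stat4 was below the filter, at no more than 0.142 FPKM. In LRH1+APAP against APAP, Stat5b came nearest, at 0.35 (adjusted p = 0.0504).

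Besides Socs3, the listed feedback inhibitors, phosphatases and receptor sheddases rose with APAP in 13 of 15 cases, and none fell. Their median was 0.62, where 47.8% of all genes rose and 15.1% fell. Upper-quartile scaling called 8 of the 15 higher and 2 lower, against 31.2% and 26.4% of all genes, and quantile normalization 7 and 2, against 25.6% and 30.3%. The list holds other SOCS genes, phosphatases, PIAS genes and the receptor sheddases Adam10 and Adam17. The smallest p-values belonged to phosphatases that act on JAKs or on signalling from the receptors: Ptpn1 (0.79, adjusted p = 0.000172), Ptpn2 (1.01, adjusted p = 0.000314) and Ptpn11 (0.59, adjusted p = 0.00123). Pias3 and Socs4 did not pass. Between LRH1+APAP and APAP livers, none of the 15 passed in the limma fit, and the nearest was Socs5 at -0.83 (adjusted p = 0.110).

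STAT3-responsive genes of hepatocytes rose in 17 of 29 cases with APAP and fell in none, with a median of 0.81, where 47.8% of all genes rose and 15.1% fell. Upper-quartile and quantile scaling called 12 and 15 of the 29 higher and 2 and 1 lower, where 31.2% and 25.6% of all genes were called higher and 26.4% and 30.3% lower. They were led by the growth regulator Myc (3.50, adjusted p = 7.36e-05), the kinase gene Pim1 (2.43, adjusted p = 7.94e-05) and Pdk4, a brake on pyruvate oxidation (3.61, adjusted p = 0.000106). The acute-phase genes of the list were split with APAP. Fga, Fgb, Fgg, Hpx, Itih3, Lcn2 and Orm1 were called higher. Saa1, Saa2, Saa3, Hp, Lbp, Hamp, Serpina3n, Itih4, Orm2 and Orm3 did not pass. Myc was at 1.43, 1.47 and 0.960 FPKM in vehicle, 15.6, 40.6 and 24.0 in APAP, and 56.3, 38.5 and 50.9 in LRH1+APAP livers. Between LRH1+APAP and APAP livers 7.13% of all genes were called higher and 5.17% lower. Of the 29 listed genes, 2 were higher there and 3 lower, with a median of -0.08. The higher ones were the acute-phase gene Orm3 (1.07, adjusted p = 0.0288) and the cyclin gene Ccnd1 (1.19, adjusted p = 0.0303). The lower ones were Timp1, a protease inhibitor (-1.22, adjusted p = 0.0401), and the fibrinogen genes Fgb (-0.60, adjusted p = 0.0426) and Fgg (-0.57, adjusted p = 0.0485), the last pair named after their values were seen. Timp1 passed the filter on low values only through the APAP livers and Orm3 only through the LRH1+APAP livers, the groups in which they were high, so that their calls carry no weight of their own. Each of these 5 calls was lost in 7 to 13 of the 17 or 18 alternatives.

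Inflammatory partners of the pathway rose in 6 of 9 cases and fell in 1 with APAP, and 5 and 2 under either scaling. With 47.8% of all genes higher and 15.1% lower without such scaling, these 9 are not set apart there by their count. Upper-quartile scaling called 31.2% of all genes higher and 26.4% lower, and quantile normalization 25.6% and 30.3%. No test of these counts was run. Tnfrsf1a, a TNF receptor, rose by 1.297 (adjusted p = 0.000186) and Cd14, an endotoxin co-receptor, by 2.63 (adjusted p = 0.000699), while Il1rap, a subunit of the interleukin 1 receptor, fell by 1.00 (adjusted p = 0.000518). Il1rap was at 87.0, 91.3 and 82.0 FPKM in vehicle, 55.1, 37.7 and 37.9 in APAP, and 59.7, 55.4 and 52.5 in LRH1+APAP livers. A pair was lower in LRH1+APAP than in APAP livers: Il1b (-2.02, adjusted p = 0.0303), at 3.31, 18.7 and 4.58 against 1.08, 0.756 and 0.953 FPKM, and Cd14 (-1.45, adjusted p = 0.0456), at 7.20, 30.8 and 17.8 against 4.82, 5.72 and 5.17 FPKM. These calls were lost in 8 of 17 and 12 of 18 alternatives. Over all genes, 5.17% were called lower in this comparison. Tnfrsf1a gave -0.49 there (adjusted p = 0.0544), and Tnf, at no more than 0.547 FPKM, was below the filter.

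**Figure D5:**
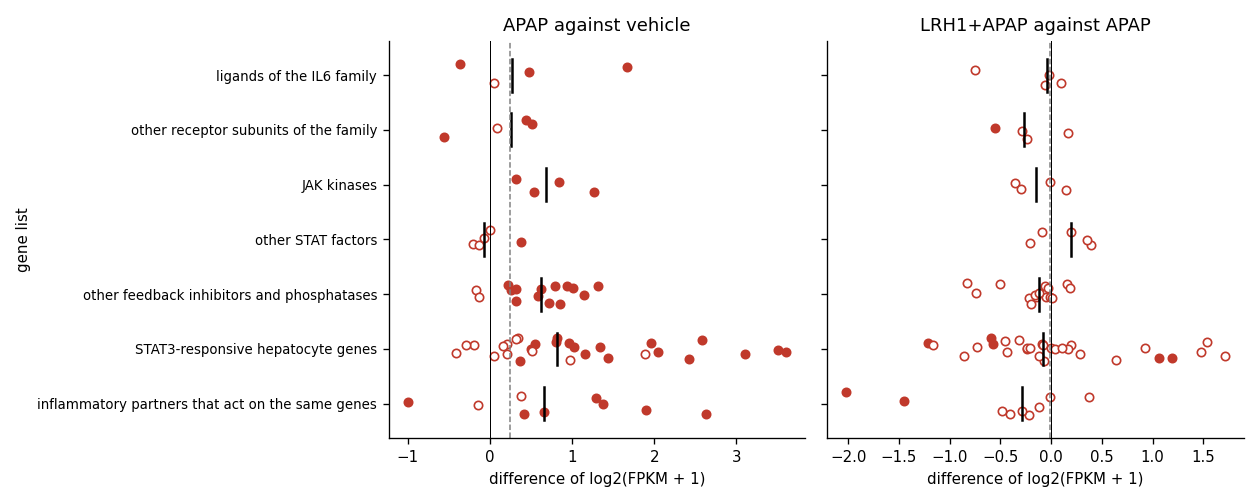
Difference of log2(FPKM + 1) for each tested gene of the 7 lists, APAP against vehicle on the left and LRH1+APAP against APAP on the right, with filled circles for an adjusted p under 0.05. Short black lines are list medians and the dashed line is the median of all 12202 genes, 0.25 and -0.01. On the left 13 of 15 genes of the list of feedback inhibitors and phosphatases are filled and right of 0, and on the right none is filled.

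Markers of other cells also differed between the groups, and not all lists did so alike. Over all genes, 47.8% were called higher and 15.1% lower with APAP, and 5.17% were called lower in LRH1+APAP than in APAP livers. All 4 neutrophil markers that passed the filter, of 6 listed, rose with APAP, and 2 were lower in LRH1+APAP than in APAP livers. Ly6g was listed at 0 in the vehicle livers. Summed markers of macrophages and Kupffer cells ranged from 97.6 to 112 FPKM in vehicle, 165 to 274 in APAP and 241 to 268 in LRH1+APAP livers, with 5 of 6 higher with APAP. Endothelial markers ranged from 85.2 to 100.4, 132 to 180.1 and 106 to 112 FPKM, with 5 of 6 higher with APAP and 3 lower in LRH1+APAP than in APAP livers. Stellate cell markers ranged from 71.7 to 123, 167 to 194 and 154 to 164 FPKM, with 4 of 6 higher with APAP. Summed cholangiocyte markers ranged from 18.1 to 20.2, 34.1 to 79.2 and 39.5 to 135.03 FPKM, those of adipocytes from 16.0 to 21.97, 57.7 to 162 and 30.4 to 35.8, and those of lymphocytes from 0.572 to 1.197, 3.34 to 5.95 and 4.52 to 7.66. Single genes carried much of these sums. Fabp4 made up nearly all of the adipocyte sum, at 57.4, 162 and 91.6 FPKM in APAP livers, with Lep at 0 in all 9. Spp1 was the largest part of the cholangiocyte sum. Cd3e was the largest part of the lymphocyte sum in APAP and LRH1+APAP livers. In all 9 livers Dcn was the largest part of the stellate sum, Clec4g of the endothelial sum and Alb of the hepatocyte sum. The part of cells other than hepatocytes in the changes of Socs3, Osmr, Il6st and Lepr, which such cells can also express, was not tested. Hepatocyte markers, 3 of 6 lower and 1 higher with APAP, ranged from 47859 to 52263 FPKM in vehicle, 43358 to 45499 in APAP and 43931 to 50055 in LRH1+APAP livers.

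The order of the 8 genes by FPKM within a liver changed in the middle and not at its ends. Fgl1 had rank 1, Osmr had rank 7 and Lepr rank 8 in all 9 livers. Il6ra had rank 3 or 4 in vehicle livers, 5 or 6 in APAP livers, and 2 or 3 in LRH1+APAP livers. Lifr had rank 2 in all vehicle livers and 4 or 5 in the other 6, and Stat3 had rank 4 or 5 in vehicle livers and 2 or 3 in the other 6. In vehicle livers the ranges of Il6ra, Il6st and Stat3 overlapped, as did those of Il6ra and Lifr and those of Socs3 and Osmr. In APAP livers the ranges of Stat3 and Il6st overlapped, and that of Socs3 overlapped those of Lifr and Il6ra. In LRH1+APAP livers Il6ra and Stat3, Stat3 and Il6st, and Il6st and Lifr overlapped in turn.

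Genes whose profile over the 9 livers lay closest to that of a member were found by the root mean square distance of log2(FPKM + 1) less the vehicle mean, among genes that averaged 5 FPKM or more. For Il6ra they were Pptc7, Slc25a51 and Mpzl2, at distances of 0.152, 0.219 and 0.228. Pptc7 was at 9.65, 8.74 and 11.7 FPKM in vehicle, 5.90, 4.48 and 4.53 in APAP, and 10.9, 13.8 and 12.4 in LRH1+APAP livers. For Fgl1 the nearest was Lrg1, at 0.117, followed by Hopx and Cd163 at 0.199 and 0.255. Lrg1 had 209, 241 and 389 FPKM in vehicle, 343, 549 and 515 in APAP, and 239.8, 262 and 167 in LRH1+APAP livers, so that vehicle liver 3 was high for both genes.

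Osmr lay nearest to Ctla2b, St3gal1 and Srf (0.132, 0.153 and 0.177), and Socs3 to Rab30, Snord47 and Slc20a1 (0.316, 0.325 and 0.333). Rab30 shared the peak in APAP liver 2, with 25.4, 61.2 and 36.8 FPKM in APAP livers against 9.35 to 11.8 in vehicle livers. Stat3 lay nearest to Spsb3, Qsox1 and Dpp9 (0.156, 0.162 and 0.166), and Il6st to Kat5, Tomm40 and Isy1 (0.0838, 0.0888 and 0.0894). Lifr lay nearest to Endog, Tmem37 and Lman2 (0.0687, 0.0839 and 0.0924), and Lepr to Hgsnat, Ipo8 and Rab11a (0.0940, 0.109 and 0.119). Small distances are easier to reach for genes that moved little, as Lifr and Lepr did on the log2(FPKM + 1) scale. That scale understates the change of Lepr, whose mean FPKM in APAP livers was 2.39-fold the vehicle mean.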

How the data were processed

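Messenger RNA of 9 livers, 3 per group, was sequenced; tissue was kept in RNAlater, RNA extracted with Trizol and libraries made with an Illumina TruSeq mRNA kit, per the labels' protocols. The authors deposited 1 table of FPKM for 36779 transcript models on mm10. Tools named in the submitters' processing notes, with no role stated, are StringTie 1.3.3b, Bowtie2 2.2.6 and FastQC 0.10.0. FPKM divides by library total and transcript length, so a rise of abundant genes lowers all others, and depth and counts are unknown.

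Here FPKM was summed per symbol, kept at a mean of at least 0.5 FPKM, and log2(FPKM + 1) of all 9 libraries was fitted with limma 3.58.1 (R 4.3.3) using a variance trend, with 6 residual degrees of freedom, and p-values were adjusted by Benjamini-Hochberg over 12202 genes, with a call at adjusted p under 0.05. Fold changes in FPKM are ratios of group means, and differences on the log2(FPKM + 1) scale understate changes of low genes such as Lepr. The labels do not say which livers were processed together. Ratios within a liver were compared with exact two-sided permutation tests. The fit was tested on simulated data. In all, 18 alternatives covering the pseudocount, filter, scaling, libraries, replicate number, transcript model, variance trend and omission of each liver were run.

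Coding lengths came from GENCODE vM21 and promoters from RefSeq. The genes named are all 8 members, the genes of each list below the filter, up to 3 of each list with the smallest p in APAP against vehicle and in LRH1+APAP against APAP, and the 3 nearest profiles of each member, leaving out Gm and Rik symbols; 2 list genes that this rule names are not reported here. Other list genes were named after their values were seen: Jak3, Il11ra1, Fgb, Fgg, Pias3 and Socs4 where a count of 5 or fewer called for it. The acute-phase genes of the STAT3-responsive list were also named after their values were seen, to give both outcomes. The markers Fabp4, Spp1, Cd3e, Dcn, Clec4g and Alb were named likewise, for their part in the marker sums. Members and lists were chosen with earlier results of these data known.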

Additional observations from a re-analysis of the deposited data

How the results depend on the processing

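Of the 8 members, Stat3, Socs3, Il6ra, Il6st and Osmr kept their calls for APAP against vehicle in all alternatives that gave a value, and Il6ra kept its call for LRH1+APAP against APAP; a filter at a mean of 5 FPKM gave no value for Osmr or Lepr. Over all genes, that filter gave 4746 calls for APAP against vehicle (main 7680) and 3671 for LRH1+APAP against vehicle (main 5759). For LRH1+APAP against APAP (main 1501), fitting the 6 libraries compared gave 263, and leaving out 1 liver at a time gave 210 (without LRH1+APAP liver 3) to 4642 (without APAP liver 1). Calls for LRH1+APAP against vehicle without 1 liver ranged from 3826 to 7053. Members called for LRH1+APAP against vehicle (main 3) were 1 under upper-quartile scaling, 1 under quantile normalization, 1 with the highest transcript model, 5 with 6 libraries, and 1 to 4 without 1 liver; for LRH1+APAP against APAP (main 1) they were 1 to 6 without 1 liver. Pathway genes called in the latter (main 8) were 0 with 6 libraries, 5 with the highest transcript model and 1 to 26 without 1 liver.

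Signs turned for Tyk2 in APAP against vehicle (-0.0084 under quantile normalization), and in LRH1+APAP against APAP for Ctf1 (-0.11 with the highest transcript model), Lifr (-0.019 to 0.26 without 1 liver) and Cntf (-0.21 to 0.042 without 1 liver). In LRH1+APAP against vehicle they turned for Lepr (-0.076 and -0.30 under upper-quartile and quantile scaling, -0.040 to 0.082 without 1 liver), Fgl1 (-0.34 to 0.13 without 1 liver) and the log2 ratio of Il6ra to Il6st (-0.060 with the highest transcript model, -0.020 to 0.24 without 1 liver). None of these differences but that of Tyk2 passed the test in the first place. The cause of these shifts was not tested, beyond the smaller number of genes or livers that some settings leave.

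The replicate numbers did not pair the livers: deviations of same-numbered livers correlated between -0.136 and 0.0682. With the replicate number as a block, LRH1+APAP against APAP gave 807 genes and 3 pathway genes, and Il6st lost its call for LRH1+APAP against vehicle; no other call of a member changed with the block. Depth cannot be judged from FPKM, so low levels such as those of Lepr and the ligands carry an unknown counting error.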
